A study of Mus musculus with 8 samples.

Results

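The comparison described here is EC-*Tert*-KO against WT in subcutaneous adipose tissue (SAT) of mice raised on high-fat diet (HFD). It was chosen by tissue and diet, and takes 2 of the 8 libraries of the series, 1 for each genotype. Both libraries hold RNA of GFP+ (mG+) cells, isolated by FACS from SAT of female mice at 8 months of age. The KO mice were Tie2e-cre; TERTfl/fl; mTmG and the WT mice were Tie2e-cre; TERT+/+; mTmG, so that both genotypes carried the Cre transgene and the reporter. HFD was given from 1 to 8 months of age, and the remaining 6 libraries come from SAT, visceral AT (VAT) and gastrocnemius muscle of chow-fed mice of both genotypes. The sources do not say if a library was made from 1 mouse or from a pool.

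*Tert* codes for the catalytic subunit of telomerase, the enzyme that adds telomeric repeats to chromosome ends. The Tie2e promoter drives Cre in endothelial cells (EC), and Tie2, the product of *Tek*, is also known from some haematopoietic cells. The mTmG reporter turns from membrane Tomato to membrane GFP in cells in which Cre has acted and in their progeny. Senescence, a lasting arrest of the cell cycle, is commonly followed through CDK inhibitors, targets of p53, and the secreted cytokines, chemokines and proteases of the senescence-associated secretory phenotype (SASP).

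The WT library had 6214269 counts and the KO library 11117656, against 9389345 to 18855772 in the chow libraries. At least 1 count was seen for 16076 genes in WT and 16034 in KO, against 19802 to 24688 in the chow libraries. Values are given as counts, or as CPM, counts divided by the library total in units of 1e6, with totals scaled by TMM factors of 1.11 for WT and 1.16 for KO. The log2 ratio is KO over WT, and the interval beside it is its exact binomial 95% interval, from counting error only. With 1 library per genotype there is no replicate spread and no test, so that each ratio describes these 2 libraries. A gene is called beyond 2-fold here where its whole interval lies beyond a 2-fold difference. A gene with no count in a library is given as a bound against a floor of 3 counts in that library (0.434 CPM in WT, 0.232 CPM in KO).

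The WT library stood apart from all others in its reads of 1 noncoding gene. In WT, 604151 counts, or 9.72% of the library (exact binomial 95% interval 9.699 to 9.745), fell on *Gm26917*, a lincRNA at chr17:39843013-39846341, plus strand (GRCm38). In KO the gene had 77404 counts, or 0.696% (0.6913 to 0.7011), and in the 6 chow libraries between 0.195% and 1.07%. The log2 ratio of *Gm26917* was -3.87 (-3.88 to -3.86). The adjoining locus *CT010467.1*, annotated as ribosomal RNA at chr17:39846353-39848827 on the minus strand, had 15692 counts in WT and 50634 in KO, with a log2 ratio of 0.79 (0.76 to 0.81), so that these neighbouring features lay on opposite sides of equality. *Gm42418* and *AY036118*, which overlap *CT010467.1*, had no count in either library. Use of strand in the counting is not given in the sources used here, so that reads of overlapping genes on opposite strands cannot be told apart.

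Other abundant noncoding features, chosen after their values were seen, were higher in KO. *Gm23935*, annotated as a miRNA at chr16:11144125-11144181 on the plus strand, had 1672 counts in WT and 78364 in KO, a log2 ratio of 4.65 (4.58 to 4.72). *Gm24270*, annotated as a miRNA at chr9:56223715-56223771 on the minus strand, had 236 and 2066 counts, a log2 ratio of 2.22 (2.03 to 2.43). These annotations, credited to GENCODE M21, have the same 57 bases, shown because reads lying wholly within them cannot be told apart by sequence. How such reads were divided in the counting is not given in the sources used here, so that the separate ratios are uncertain. Counting *Gm23935* and *Gm24270* themselves, 6 genes of the table share at least 20 of these bases.
Gm23935: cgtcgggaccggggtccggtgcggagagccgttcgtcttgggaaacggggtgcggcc
Gm24270: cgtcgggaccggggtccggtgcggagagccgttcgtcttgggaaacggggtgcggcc

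The mitochondrial ribosomal RNAs were also far lower in WT than in KO. *mt-Rnr1* had 10 counts in WT and 6534 in KO, a log2 ratio of 8.40 (7.57 to 9.51). *mt-Rnr2* had 188 counts in WT and 13951 in KO, a log2 ratio of 5.31 (5.10 to 5.52). In SAT on chow both were instead more abundant in WT, with 41587 against 4840 counts for *mt-Rnr1* and 76169 against 11534 for *mt-Rnr2*. The VAT and muscle libraries were low like the WT library, with 28 to 109 counts for *mt-Rnr1*, 208 to 568 for *mt-Rnr2* and 392 to 928 for *Gm23935*. Protein-coding genes took 85.9% of the counts in WT and 94.3% in KO.

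**Figure D1:**
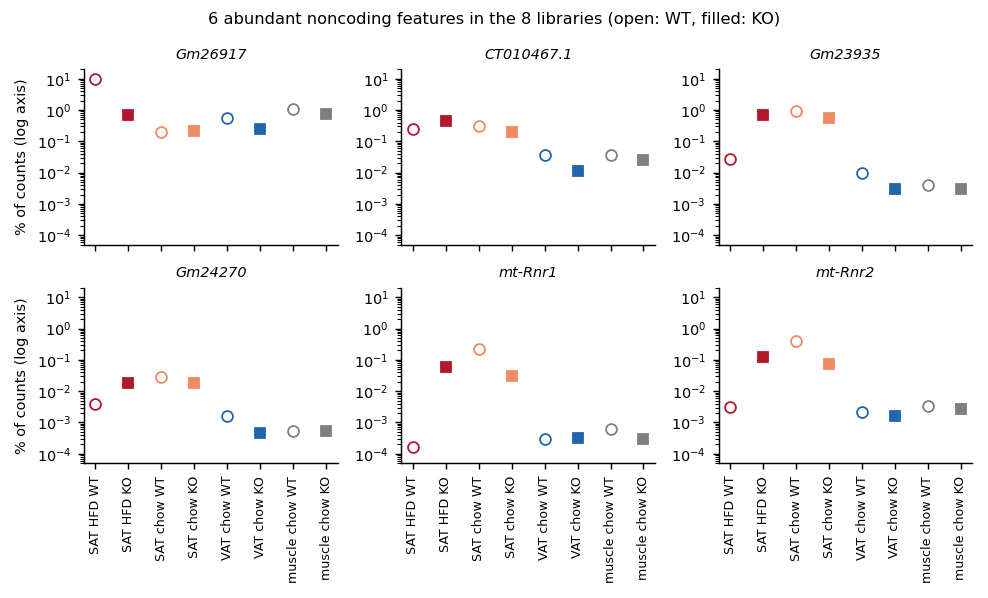
Percent of all counts (log axis) on 6 noncoding features in each of the 8 libraries, with open circles for WT and filled squares for KO. *Gm26917* is at 9.72% in the WT library of SAT on HFD and between 0.195% and 1.07% in all others, while *Gm23935* and the mitochondrial ribosomal RNAs are lower in that WT library than in the other SAT libraries.

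*Tert* was counted in WT and not in KO. The gene, at chr13:73626911-73649843 on the plus strand, had 114 counts in WT and 0 in KO, at least 71.1-fold lower. Of the 500 genes nearest to it in mean count, 0.6% lay as far from equality. On chow, *Tert* had 70 counts in WT and 11 in KO of SAT (log2 ratio -2.61), and log2 ratios of 0.90 in VAT and -1.46 in muscle, so that the KO library had fewer *Tert* reads than WT in 3 of the 4 pairs. The deleted exons are not read apart in counts per gene.

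Of the other telomerase and shelterin genes, few differed by much. Among the 13 genes of the list other than *Tert* that were measured, that is averaged 10 counts or more in the pair, 1 (7.69%) was beyond 2-fold lower in KO and 0 higher, against 10.9% lower and 12.9% higher among all genes measured. Their intervals lay above equality in 4 and below it in 4, and the median log2 ratio was -0.01 against 0.06 over all genes. *Nhp2*, a protein of the H/ACA particle in telomerase, had 273 counts in WT and 195 in KO (log2 ratio -1.39, -1.66 to -1.12). *Dkc1*, which codes for dyskerin, had 299 and 555 (-0.01, -0.22 to 0.20). *Terf2*, the shelterin subunit that protects telomeres from fusion, had 192 and 605 (0.75, 0.51 to 0.99). *Terc*, the RNA template, had no count in either library.

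Across all genes, the libraries resembled each other for abundant transcripts and differed widely for those of low count. Of 15839 genes that averaged 10 counts or more over the pair, 2040 were beyond 2-fold higher in KO and 1729 lower, so that 54.1% of the genes beyond 2-fold were higher. The interval lay above equality for 39.4% of genes, below it for 33.2% and spanned it for 27.4%. These shares, with 12.9% of genes beyond 2-fold higher and 10.9% lower, are the background for the lists of genes below. The median log2 ratio was 0.06, with quartiles of -0.53 and 0.63. Among the 5459 genes that averaged 300 counts or more, 65 were beyond 2-fold higher and 39 lower, or 1.91% of them. Over the 7691 genes with at least 100 counts in both libraries, Pearson's r of log2 CPM was 0.930, across genes, which are not independent replicates.

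Genes missing from 1 library made up the larger share of the genes beyond 2-fold. A gene with 0 counts in a library entered the comparison only with at least 20 counts in the other, and was then always beyond 2-fold: there were 2334 such genes, 61.9% of all those called, 1448 of them with 0 in WT and 886 with 0 in KO. With at least 10 counts required in both libraries, 436 of 12957 genes were beyond 2-fold higher and 741 lower, so that the larger side changed.

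The absence reached genes whose counts in the other library were far from 0. Of 4035 genes with 60 to 200 counts in WT, 78 (1.93%) had 0 counts in KO, where 60 WT counts correspond to about 112 in KO. In the other direction, 275 of 3548 genes (7.75%) in the same range in KO lacked any count in WT, where 60 KO counts correspond to about 32. The same shares were 0.137% and 0.212% in VAT, 0.0972% and 0.0302% in muscle, and 0.0365% and 2.88% in SAT on chow. At these counts the HFD pair was therefore farther apart than the VAT and muscle pairs, and the intervals given with each ratio hold none of that spread.

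The dependence on count was steep. The percent of genes beyond 2-fold was 66.2 among genes with a mean of 10 to 30 counts, 30.7 at 30 to 100, 10.9 at 100 to 300, 2.42 at 300 to 1000, 0.71 at 1000 to 3000 and 1.44 above 3000. In VAT it was 12.3 and 0.905 at 10 to 30 and 300 to 1000 counts, and in SAT on chow 39.5 and 24.3. The HFD pair thus had the highest share of the 4 pairs at 10 to 30 counts, whereas at 30 to 100 counts the share was 34.1 in SAT on chow, which also had the highest share in every range above. At 1000 to 3000 counts the HFD pair was close to VAT, at 0.812, and muscle, at 0.913. Differences of genes below about 100 counts are given below as counts of these libraries.

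**Figure D2:**
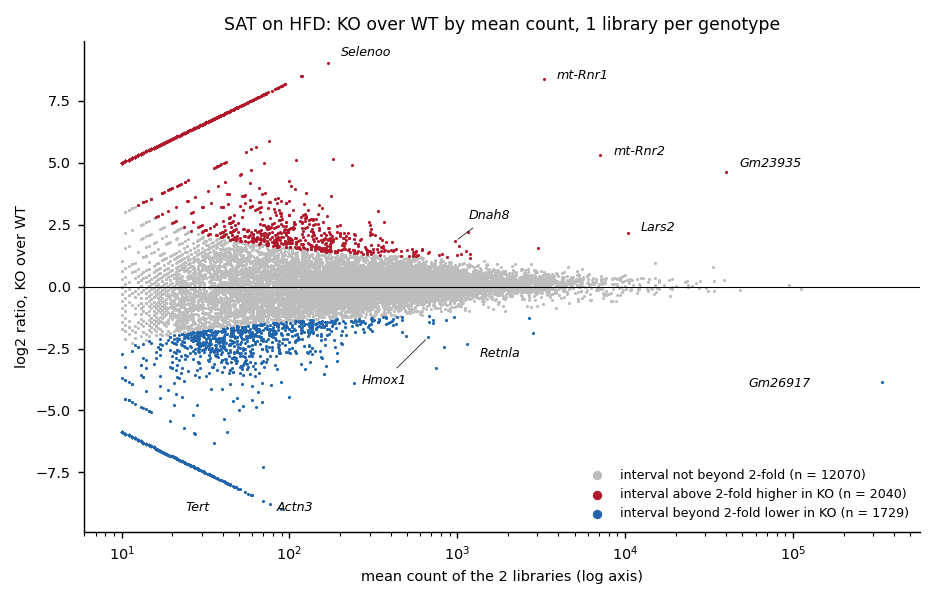
Log2 ratio of KO over WT against the mean count of the 2 libraries (log axis) for 15839 genes of SAT on HFD, with 2040 genes beyond 2-fold higher in KO in red and 1729 lower in blue. The straight diagonals are genes at 0 in 1 library, and above a mean of 300 counts 1.91% of genes are beyond 2-fold.

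**Figure D3:**
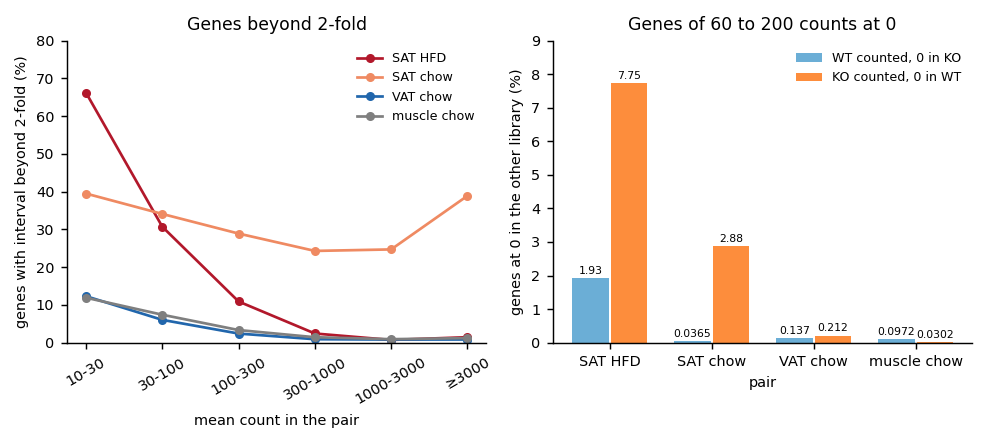
Left, percent of genes with an interval beyond 2-fold by mean count in each of the 4 pairs, which drops from 66.2 to 1.44 in SAT on HFD. Right, percent of genes with 60 to 200 counts in 1 library and 0 in the other, at 1.93 and 7.75 in SAT on HFD and at most 0.212 in VAT and muscle.

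The protein-coding genes that were lower in KO by the widest margin, among those with at least 10 counts in both libraries and a mean of at least 50 CPM, included secreted proteins of immune and stromal cells and enzymes. *Retnla*, which codes for the resistin-like molecule RELM alpha of alternatively activated macrophages, had 1656 counts (239 CPM) in WT and 616 (47.6 CPM) in KO, a log2 ratio of -2.33 (-2.47 to -2.20). *Hmox1*, the haem-degrading oxygenase, had 923 and 420 counts, a log2 ratio of -2.04 (-2.21 to -1.87). *Cxcl1*, a chemokine for neutrophils, had 519 and 343 counts, a log2 ratio of -1.50 (-1.70 to -1.30). *Tnfaip6*, the hyaluronan-binding protein TSG-6, had 805 and 557 counts (-1.43, -1.59 to -1.28), and *Gfpt2*, an enzyme of the hexosamine pathway, 991 and 725 (-1.35, -1.50 to -1.22).

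The other leading lower genes had products of varied function. *Cox6a1*, a subunit of cytochrome c oxidase, had 828 and 613 counts (-1.34, -1.49 to -1.19). *Pik3c2b*, a class II phosphoinositide kinase, had 486 and 387 (-1.23, -1.43 to -1.04). *Anxa5*, a phosphatidylserine-binding annexin, had 1053 and 846 (-1.22, -1.35 to -1.09). *Abcb1a*, the drug efflux pump of blood vessel walls, had 520 and 417 (-1.22, -1.41 to -1.03). *Rpl17* (-1.27), *Ranbp10* (-1.20) and *Gm21887* (-1.85) complete the 12. Reads of *Rpl17* could be assigned to its pseudogene copies, so that its ratio is uncertain. The copy *Rpl17-ps10* had 3377 and 5868 counts (-0.11, -0.17 to -0.05), and *Rpl17-ps3* had 1855 and 3896 (0.17, 0.09 to 0.25). Both copies of *Rpl17* were chosen after their values were seen.

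Markers of macrophages were lower in KO more often than higher. Of 16 measured markers, 11 (68.8%) had intervals below equality, against 33.2% of all genes, 2 lay above it and 3 spanned it. Beyond 2-fold, 2 were lower (12.5%, against 10.9%) and 1 higher, the median log2 ratio was -0.47 and the summed level was 819 CPM in WT and 534 CPM in KO. *Lyz2*, a lysozyme of myeloid cells, had 2667 and 2827 counts (-0.82, -0.90 to -0.74). *Mrc1*, the mannose receptor of resident macrophages, had 386 and 295 (-1.29, -1.52 to -1.07). *Csf1r*, the receptor for macrophage colony-stimulating factor, had 626 and 579 (-1.02, -1.18 to -0.85). *Gpnmb*, a marker of lipid-laden macrophages, went the other way with 11 and 165 counts (2.96, 2.13 to 4.03), and *Folr2*, of resident macrophages, had 21 counts in WT and 0 in KO, at least 13.1-fold lower. The summed level in both libraries was below that in the 6 chow libraries, which ran from 1036 to 15076 CPM. In bulk samples fewer cells of a type and less RNA per cell cannot be told apart, here and for every list of markers that follows.

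Chemokines and cytokines of the SASP were on balance lower in KO. Of 24 measured, 14 (58.3%) had intervals below equality, against 33.2% of all genes, 5 lay above and 5 spanned it. Beyond 2-fold, 4 were lower (16.7%, against 10.9% of all genes) and 1 higher, the median log2 ratio was -0.29, and the summed level was 1741 CPM in WT and 1426 CPM in KO. *Ccl2*, which attracts monocytes, had 166 counts in WT and 92 in KO (-1.75, -2.14 to -1.38). *Ccl7*, of the same family, had 131 and 50 (-2.28, -2.79 to -1.81). *Cxcl2* had 634 and 592 counts, with an interval of -1.17 to -0.84, and *Il1b*, the inflammasome-processed interleukin, 458 and 476 (-0.85, -1.04 to -0.66). *Csf2*, which codes for GM-CSF, had 22 counts in WT and 0 in KO, at least 13.7-fold lower.

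Other secreted factors had intervals that spanned equality or lay above it. *Il6* had 95 and 212 counts (0.25, -0.10 to 0.62), and *Tnf* 368 and 647 (-0.09, -0.28 to 0.10), both with intervals that span equality. *Ccl4*, made by activated macrophages and T cells, had 90 and 447 (1.40, 1.08 to 1.75). *Cxcl12*, a stromal chemokine, had 272 and 747 (0.55, 0.35 to 0.76). In SAT on chow the median of the same list was 1.11 and the summed level 1698 CPM in WT and 1993 CPM in KO. The macrophage markers moved with the lower chemokines in SAT on HFD, from 819 to 534 CPM, and their part in it was not tested.

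*Cxcl1* and *Cxcl2* lie next to each other on chromosome 5 and were both lower in KO. Their upstream sequences, 250 bases before the start of transcription from RefSeq on GRCm38.p6, plus strand, are shown because both hold a stretch of the NF-kB type, the factor class known for inducing inflammatory chemokines. The capitals mark the longest run of letters found in both windows, 14 bases long, which begins 71 bases before the start in *Cxcl1* and 97 bases before it in *Cxcl2*. On either strand, 2 of 32851 promoter windows of this length, or 0.00609%, held the run, and these were the 2 windows it was taken from. The match is a description of the letters and not of binding. *Cxcl1* is the window chr5:90890995-90891244 and *Cxcl2* the window chr5:90903649-90903898.
Cxcl1: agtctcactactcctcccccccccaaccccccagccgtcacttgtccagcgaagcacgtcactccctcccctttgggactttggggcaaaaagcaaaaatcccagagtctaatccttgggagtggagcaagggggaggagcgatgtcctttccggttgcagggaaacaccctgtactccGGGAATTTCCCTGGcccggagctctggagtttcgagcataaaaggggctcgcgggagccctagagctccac
Cxcl2: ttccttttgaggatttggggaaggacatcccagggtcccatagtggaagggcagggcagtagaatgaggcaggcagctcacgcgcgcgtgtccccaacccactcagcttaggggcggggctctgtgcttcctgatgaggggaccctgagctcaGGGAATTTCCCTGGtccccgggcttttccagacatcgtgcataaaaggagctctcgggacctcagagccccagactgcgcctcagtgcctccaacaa

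Of 16 measured NF-kB subunits and feedback genes, 0 lay beyond 2-fold, against 12.9% of all genes higher and 10.9% lower. The members named here averaged 300 counts or more, where 1.91% of all genes lay beyond 2-fold. Intervals lay above equality in 7 (43.8%, against 39.4% of all genes) and below in 6 (37.5%, against 33.2%), with a median log2 ratio of 0.02. *Tnfaip3*, which codes for the feedback inhibitor A20, had 5555 counts in WT and 14497 in KO (0.48, 0.43 to 0.52). *Nfkbia*, the inhibitor IkB alpha, had 3182 and 5288 (-0.17, -0.24 to -0.11). *Nfkbib* was the lowest of the list with 454 and 380 counts (-1.16, -1.36 to -0.96).

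Proteases and matrix regulators of the SASP were balanced, with a median log2 ratio of 0.03. Of 16 intervals, 4 lay above equality (25%, against 39.4% of all genes) and 4 below (25%, against 33.2%). *Plaur*, the urokinase receptor, had 597 and 2282 counts (1.03, 0.90 to 1.16). *Timp1*, an inhibitor of metalloproteinases, had 0 counts in WT and 48 in KO, at least 8.55-fold higher, and *Mmp13* had 32 and 0, at least 20-fold lower.

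The leading protein-coding genes higher in KO had varied roles. *Lars2*, the mitochondrial leucyl-tRNA synthetase, had 2206 counts (319 CPM) in WT and 18531 (1431 CPM) in KO, a log2 ratio of 2.17 (2.10 to 2.23), and belongs to the transcripts listed here for overlap with ribosomal RNA repeats. *Dnah8*, an axonemal dynein heavy chain at chr17:30624354-30875264, had 254 and 1687 counts (1.83, 1.64 to 2.02), while its neighbours *Glo1* and *Btbd9* had log2 ratios of -0.34 and -0.28. *Nup205*, of the nuclear pore, had 193 and 1044 counts (1.53, 1.31 to 1.76). *Cisd2*, an iron-sulphur protein of the endoplasmic reticulum and mitochondria, had 199 and 1033 (1.47, 1.25 to 1.70), and *Gbp7*, an interferon-inducible GTPase, 185 and 950 (1.45, 1.23 to 1.69). *Cd247*, the zeta chain of the T cell receptor complex, had 420 and 1960 (1.32, 1.16 to 1.47). *Zbtb18*, *Phf6*, *Trp53i11* and *Cdc40* had log2 ratios between 1.30 and 1.38.

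A minority of these genes lay on the same side in SAT on chow. Of the 12 leading higher genes, 4 were also higher in KO in SAT on chow and 8 were lower, with a median log2 ratio of -0.36 there. Of the 12 leading lower genes, 4 were also lower in SAT on chow and 8 were higher, with a median of 0.75. *Dnah8* alone was higher in all 4 pairs (2.70, 0.49 and 1.04 in SAT, VAT and muscle on chow), and 0 of the lower genes were lower in all 4. The pairs share no library, and the differences between them were not tested. The same count over all genes is not given here, so that these splits have no background. In SAT on chow, 24.3% to 39.5% of genes lay beyond 2-fold, depending on the range of mean counts. The lincRNA *Gm42047*, chosen after its values were seen, was also higher in all 4 pairs, with 297 and 1754 counts in SAT on HFD (1.66, 1.48 to 1.84).

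**Figure D4:**
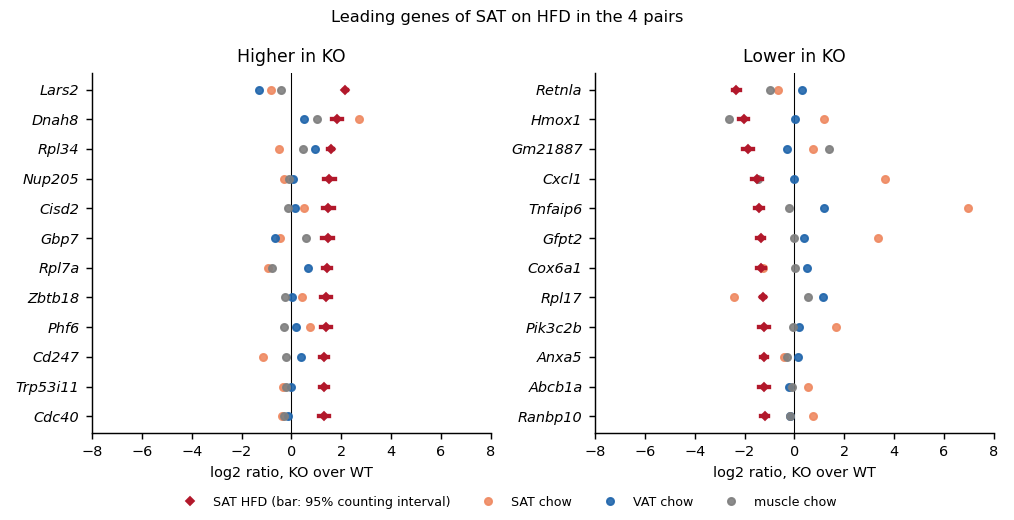
Log2 ratio of KO over WT for the 12 genes highest (left) and the 12 lowest (right) in KO in SAT on HFD, as diamonds with bars for the 95% counting interval, and circles for the same genes in the 3 chow pairs. *Dnah8* is to the right of 0 in all 4 pairs, and *Tnfaip6*, *Cxcl1* and *Gfpt2* lie at 6.97, 3.64 and 3.37 in SAT on chow against -1.43, -1.50 and -1.35 on HFD.

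*Rpl34* and *Rpl7a*, which complete the 12 leading higher genes, have processed copies to which reads could be assigned, so that their ratios are uncertain. *Rpl34* had 914 counts in WT and 5113 in KO (1.58, 1.48 to 1.68), while its pseudogene *Rpl34-ps1* had 3737 and 1916 (-1.87, -1.95 to -1.79). Their sum was 673 CPM in WT and 543 CPM in KO, a log2 ratio of -0.31 (-0.36 to -0.26), which has the opposite sign from *Rpl34* alone. *Rpl7a* had 372 and 1878 counts (1.43, 1.27 to 1.60), and summed with 3 of its copies 101 CPM and 155 CPM (0.62, 0.49 to 0.74). The copy *Gm10076* of *Rpl41* had 1249 and 240 counts (-3.28, -3.49 to -3.08), and together they had 581 CPM and 543 CPM (-0.10, -0.15 to -0.04). These copies were chosen after their values were seen. Over 80 measured cytosolic ribosomal protein genes, 60 intervals (75%, against 33.2% of all genes) lay below equality and 9 (11.2%, against 39.4%) above it. The 2-fold limit was passed by 2 genes higher (2.5%, against 12.9% of all genes) and 1 lower (1.25%, against 10.9%). The median log2 ratio was -0.19, and the summed level was 61580 CPM in WT and 54757 CPM in KO.

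T cell genes were slightly higher in KO. Of 15 measured, 12 (80%, against 39.4% of all genes) had intervals above equality and 1 (6.67%, against 33.2%) below. The median log2 ratio was 0.20, against 0.06 over all genes, and the summed level was 3141 CPM in WT and 3674 CPM in KO. *Cd3e*, of the T cell receptor complex, had 1150 and 3240 counts (0.59, 0.49 to 0.69). *Trac*, the constant part of the receptor's alpha chain, had 1353 and 3690 (0.54, 0.45 to 0.63). *Foxp3*, the factor of regulatory T cells, had 86 and 287 (0.83, 0.48 to 1.20). *Cd8a*, the coreceptor of cytotoxic T cells, was the member below equality, with 2187 and 3629 (-0.17, -0.25 to -0.10). B cell markers had a median of -0.01 over 12 genes, with summed levels of 2090 CPM and 2121 CPM. In both lists 0 genes were beyond 2-fold lower, and *Cd247* alone was beyond 2-fold higher.

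Genes of other lymphoid and granulocytic cells were split. Of 14 NK cell and ILC2 genes, 9 (64.3%, against 33.2% of all genes) had intervals below equality and 4 (28.6%, against 39.4%) above. Beyond 2-fold, 4 were lower (28.6%, against 10.9% of all genes) and 0 higher, whereas the summed level was 729 CPM in WT and 792 CPM in KO. The most abundant member, *Il7r*, the interleukin-7 receptor that T cells share, had 1879 and 5060 counts (0.52, 0.45 to 0.60). *Gzma*, a granule protease, had 351 and 269 counts (-1.29, -1.52 to -1.06), *Ncr1*, the NK receptor NKp46, had 67 and 0, at least 41.8-fold lower, and the type 2 cytokines *Il13* and *Il5* had 39 counts each in WT and 17 and 0 in KO. The *Il13* log2 ratio was -2.06 (-3.02 to -1.25), and *Il5* was at least 24.3-fold lower. *Il13* and *Il5* averaged 10 to 30 counts and *Ncr1* 30 to 100, ranges in which 66.2% and 30.7% of all genes lay beyond 2-fold. Dendritic cell genes had a median of -0.01 over 10 genes, with *Batf3*, a factor of cross-presenting dendritic cells, at 66 and 0 counts, at least 41.2-fold lower, and *Clec9a*, a receptor of the same cells, at 61 and 232 (1.02, 0.61 to 1.45). Of 8 neutrophil genes 4 (50%, against 39.4% of all genes) lay above equality and 2 (25%, against 33.2%) below, with a median of 0.40. Beyond 2-fold, 1 was higher, *Csf3r*, the G-CSF receptor, with 35 and 367 counts (2.47, 1.98 to 3.03), and 1 lower. The lower gene was *Ngp* with 65 and 39 counts (-1.63, -2.25 to -1.05), and *S100a9* had 155 and 177 (-0.71, -1.03 to -0.39). Mast cell and eosinophil genes had a median of -0.92 over 7 genes, with *Mcpt4*, a chymase, at 155 and 153 (-0.92, -1.26 to -0.59) and *Tpsb2*, a tryptase, at 48 and 264 (1.55, 1.11 to 2.03).

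Immunoglobulin genes differed by isotype. *Ighm*, the IgM constant gene, had 6750 counts in WT and 14238 in KO (0.17, 0.13 to 0.21), and *Ighg2c* 1533 and 4260 (0.57, 0.49 to 0.65). The rarer isotypes were far apart, with *Igha* at 17 and 295 counts (3.19, 2.51 to 4.01), *Ighg2b* at 48 and 547 (2.60, 2.18 to 3.06) and *Ighg3* at 25 and 270 (2.51, 1.94 to 3.18). *Ighg1* had 108 counts in WT and 12 in KO (-4.00, -5.07 to -3.21). The constant genes are similar in sequence, and reads could be split between them.

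Interferon-stimulated genes were above equality in 12 of 25 (48%, against 39.4% of all genes) and below in 3, with a median log2 ratio of 0.24. Beyond 2-fold, 3 were higher (12%, against 12.9% of all genes) and 0 lower. *Mx1*, an antiviral GTPase, had 21 counts in WT and 266 in KO (2.74, 2.12 to 3.47). *Usp18*, which removes ISG15 from proteins, had 24 and 171 (1.91, 1.31 to 2.61), and *Rsad2*, which codes for viperin, 55 and 276 (1.42). These 3 genes fall in the bins of 30 to 100 and 100 to 300 mean counts, in which 30.7% and 10.9% of all genes lay beyond 2-fold.

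Endothelial genes were present in both libraries at the lowest summed levels of the series, 589 CPM in WT and 579 CPM in KO, against 949 to 4577 CPM in the chow libraries. Of 24 measured, 11 (45.8%, against 33.2% of all genes) had intervals below equality, 5 (20.8%, against 39.4%) above and 8 spanning it. Beyond 2-fold, 2 were lower (8.33%, against 10.9% of all genes) and 1 higher (4.17%, against 12.9%), and the median log2 ratio was -0.31. *Pecam1*, the junctional CD31 that leukocytes share, had 1001 counts in WT and 2647 in KO (0.50, 0.39 to 0.60). *Plvap*, of fenestral diaphragms, had 177 and 681 (1.04, 0.80 to 1.29). *Tek*, the angiopoietin receptor Tie2 itself, had 40 and 285 (1.92, 1.45 to 2.44). *Cdh5*, which codes for VE-cadherin, had 94 and 275 (0.64).

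Other endothelial genes were lower. *Ecscr*, a surface protein of migrating EC, had 64 counts in WT and 14 in KO (-3.04, -4.05 to -2.25). *Sox18*, a transcription factor of vascular development, had 48 and 19 (-2.20, -3.09 to -1.45). *Flt1*, the decoy VEGF receptor, had 125 and 95 (-1.29, -1.70 to -0.90), and *Kdr*, the main VEGF receptor, 166 and 229 (-0.44, -0.74 to -0.14). *Vwf*, the von Willebrand factor, had 393 and 386 (-0.93, -1.14 to -0.72). *Aplnr* had no count in either library. The endothelial markers therefore did not lie on one side, and most had fewer than 300 counts in both libraries.

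Capillary genes of fatty acid handling were below equality in 7 of 11 (63.6%, against 33.2% of all genes) and above in 3 (27.3%, against 39.4%). Their median log2 ratio was -0.70, with summed levels of 558 CPM in WT and 457 CPM in KO. *Cd36*, the fatty acid translocase, had 897 counts in WT and 954 in KO (-0.82, -0.95 to -0.68). *Fabp4*, which binds fatty acids in EC and adipocytes, had 900 and 919 (-0.87, -1.01 to -0.74). *Aqp1*, a water channel, had 576 and 1643 (0.61, 0.47 to 0.75). *Gpihbp1*, which carries lipoprotein lipase across capillaries, had 32 and 129 (1.10, 0.54 to 1.71). *Tcf15*, a factor of fatty acid uptake in capillary EC, had 44 and 0, at least 27.5-fold lower, and *Btnl9* had 0 and 87, at least 15.5-fold higher. Lymphatic genes had a median of -0.71 over 7, with 3 intervals above equality and 4 below, 1 gene beyond 2-fold higher and 0 lower, and summed levels of 461 CPM in WT and 554 CPM in KO. That median turned positive when genes averaging under 50 counts were left out, and the mean of the list was positive. Examples were *Prox1*, the lymphatic master regulator, at 49 and 29 counts (-1.64, -2.38 to -0.97) and *Lyve1*, the hyaluronan receptor, at 45 and 160 (0.92, 0.44 to 1.44).

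Of 18 measured genes of VEGF, angiopoietin and vascular tone, 11 (61.1%, against 33.2% of all genes) had intervals below equality and 5 (27.8%, against 39.4%) above. Their median was -0.33, with summed levels of 1325 CPM in WT and 1338 CPM in KO. The genes beyond 2-fold ran the other way, with 3 higher (16.7%, against 12.9% of all genes) and 1 lower (5.56%, against 10.9%). Among ligands, *Vegfa* had 232 counts in WT and 612 in KO (0.49, 0.27 to 0.72), and *Vegfb* had 21 and 126 (1.66, 1.01 to 2.42). *Vegfc*, the lymphangiogenic ligand, had 86 and 0, at least 53.7-fold lower, and *Angpt1*, the agonist of Tie2, had 0 and 49, at least 8.72-fold higher. Among other receptors and effectors, *Nrp1*, a VEGF coreceptor, had 360 and 401 (-0.75, -0.96 to -0.54), and *Thbd*, thrombomodulin, 357 and 576 (-0.21, -0.41 to -0.02). *Nos3*, the endothelial nitric oxide synthase, had 15 and 10 counts (-1.43, -2.81 to -0.24).

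Notch genes were above equality in 8 of 13 (61.5%, against 39.4% of all genes) and below in 2 (15.4%, against 33.2%). Their median of 0.37 was the highest among the lists of processes. *Notch1*, a receptor, had 1212 counts in WT and 2930 in KO (0.37, 0.27 to 0.47). *Notch4*, the endothelial receptor, had 18 and 171 (2.32, 1.64 to 3.13). The ligand *Dll1* had 4 and 103 (3.67, 2.38 to 5.68) and the ligand *Dll4* 64 and 209 (0.80, 0.39 to 1.23). *Rbpj*, the factor through which the receptors act, had 731 and 982 (-0.48, -0.62 to -0.34), and *Hes1*, a target, 126 and 250 (0.08, -0.23 to 0.40). In the TGF-beta family 9 of 22 lay above and 8 below equality, with *Smad6*, an inhibitor, at 13 and 108 (2.12, 1.32 to 3.10), *Ctgf*, a target, at 29 and 191 (1.80, 1.25 to 2.43) and *Tgfbr2*, a receptor, at 2304 and 5088 (0.24, 0.17 to 0.31).

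Among leukocyte adhesion genes 0 of 15 were beyond 2-fold, against 12.9% of all genes higher and 10.9% lower. Intervals lay above equality in 6 (40%, against 39.4% of all genes) and below in 3 (20%, against 33.2%). *Selp*, the P-selectin of activated endothelium, had 358 counts in WT and 375 in KO (-0.84, -1.05 to -0.62), and *Sele*, the E-selectin, 59 and 232 (1.07, 0.65 to 1.51). *Icam1*, an integrin ligand, had 944 and 1662 (-0.09, -0.20 to 0.03).

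CDK inhibitors did not lie on one side, with 1 gene of the list beyond 2-fold higher (8.33%, against 12.9% of all genes) and 2 lower (16.7%, against 10.9%). *Cdkn1a*, which codes for p21, had 782 counts in WT and 797 in KO, a log2 ratio of -0.88 (-1.02 to -0.73), and in SAT on chow its ratio was 2.03. *Cdkn2a*, which codes for p16 and p19, had 0 counts in WT and 41 in KO, at least 7.30-fold higher. *Cdkn2b*, of p15, had 25 and 0, at least 15.6-fold lower, and *Cdkn1c*, of p57, had 75 and 35 (-1.98, -2.63 to -1.41). Both *Cdkn2a* and *Cdkn2b* averaged 10 to 30 counts, a range in which 35.1% of all genes had 0 in WT and 24.3% had 0 in KO. *Cdkn1b*, of p27, had 1594 and 3388 (0.18, 0.10 to 0.27). Of 12 genes of this list, 7 (58.3%, against 39.4% of all genes) were above and 3 (25%, against 33.2%) below equality, with a median of 0.20. *Lmnb1*, the lamin that is lost in senescence, had 432 and 1399 (0.79, 0.63 to 0.95), and *Trp53* itself 585 and 1328 (0.28, 0.14 to 0.42).

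Targets of p53 were above equality in 10 of 18 (55.6%, against 39.4% of all genes) and below in 3, with a median of 0.15. Beyond 2-fold, 2 were lower (11.1%, against 10.9% of all genes) and 1 higher (5.56%, against 12.9%), shares near or under those of all genes. *Gdf15*, a stress cytokine, had 202 counts in WT and 62 in KO (-2.60, -3.04 to -2.19). *Bax*, the effector of apoptosis, had 425 and 331 (-1.26, -1.48 to -1.05). *Sesn1*, a sestrin, had 520 and 1814 (0.90, 0.76 to 1.04), and *Mdm2*, the ligase that degrades p53, 528 and 1354 (0.45, 0.31 to 0.60). *Perp* was beyond 2-fold higher, with 0 and 40 counts, at least 7.12-fold.

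DNA damage genes were above equality in 18 of 41 (43.9%, against 39.4% of all genes) and below in 10, with a median of 0.01. Beyond 2-fold, 3 were higher (7.32%, against 12.9% of all genes) and 0 lower, so that the list did not exceed the background. *Atm*, the kinase of double-strand breaks, had 499 counts in WT and 1492 in KO (0.68, 0.53 to 0.82), and *Prkdc*, the DNA-dependent kinase, 425 and 1240 (0.64, 0.48 to 0.80). *Xpa*, of nucleotide excision repair, had 31 and 242 (2.05, 1.52 to 2.65). *Lig4*, the ligase of end joining, had 0 and 132, at least 23.5-fold higher, and *Chek1*, a checkpoint kinase, 0 and 44, at least 7.83-fold higher. *Mdc1*, a mediator of the damage response, had 622 and 845 (-0.46, -0.61 to -0.31).

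Proliferation genes were above equality in 17 of 35 (48.6%, against 39.4% of all genes) and below in 7, with a median of 0.27, and 3 (8.57%) were beyond 2-fold in each direction. *Mki67* had 301 counts in WT and 772 in KO (0.45, 0.26 to 0.65), *Top2a*, a topoisomerase of dividing cells, 253 and 669 (0.50, 0.29 to 0.71), and *Mcm4*, of the replicative helicase, 263 and 992 (1.01, 0.81 to 1.21). Genes of low count lay on both sides, with *Ube2c*, of the anaphase-promoting complex, at 5 and 132 (3.73, 2.56 to 5.46), *Kif20a*, a mitotic kinesin, at 0 and 64, at least 11.4-fold higher, and *Aurka*, a mitotic kinase, at 40 and 11 (-2.70, -3.88 to -1.78). *Ccnb1* and *Cenpf*, of mitosis, had log2 ratios of -2.11 and -2.08.

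Hypoxia response genes were above equality in 12 of 27 (44.4%, against 39.4% of all genes) and below in 6, with a median of 0.11. Beyond 2-fold, 3 were lower (11.1%, against 10.9% of all genes) and 1 higher, namely *Ankrd37*, with 0 and 22 counts, at least 3.92-fold. Among regulators, *Hif1a* had 637 counts in WT and 1634 in KO (0.45, 0.32 to 0.59), and *Epas1*, of HIF2 alpha, 240 and 566 (0.33, 0.11 to 0.56). The prolyl hydroxylase gene *Egln2* had 372 and 1099 (0.66, 0.49 to 0.83), whereas *Egln3* had 95 and 25 (-2.80, -3.53 to -2.18). Among targets, *Ndrg1* had 361 and 231 (-1.55, -1.79 to -1.31), *Adm*, which codes for adrenomedullin, 136 and 97 (-1.39, -1.78 to -1.01), and *Pdk1*, which restrains pyruvate entry into mitochondria, 768 and 1897 (0.40, 0.28 to 0.52). Regulators and targets were thus found on both sides.

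Genes of glucose uptake and glycolysis had a median of 0.14 over 23, with 11 above equality and 6 below. *Slc2a3*, a glucose transporter, had 543 counts in WT and 1365 in KO (0.42, 0.28 to 0.57), and *Slc2a1* 456 and 940 (0.14, -0.02 to 0.30). *Hk2*, a hexokinase, had 249 and 247 (-0.91, -1.18 to -0.66), and *Hk3*, the hexokinase of myeloid cells, had 83 and 2, a log2 ratio of -5.88 (-9.35 to -4.38). *Pfkp*, of phosphofructokinase, had 1562 and 1915 (-0.61, -0.71 to -0.51), and *Ldha*, of lactate dehydrogenase, 1852 and 3827 (0.14, 0.06 to 0.22).

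Nuclear OXPHOS genes were below equality in 20 of 51 (39.2%, against 33.2% of all genes) and above in 12, with a median of -0.10. Beyond 2-fold, 4 were lower (7.84%, against 10.9% of all genes) and 1 higher. The lower 4 were *Cox6a1*, *Ndufb3* with 99 and 40 counts (-2.19, -2.78 to -1.67), *Uqcrb* with 60 and 30 (-1.88, -2.59 to -1.25) and *Ndufs8* with 220 and 160 (-1.36, -1.67 to -1.06). *Ndufa5*, of complex I as are *Ndufb3* and *Ndufs8*, had 34 and 252 (1.97, 1.46 to 2.55). The mitochondrially encoded genes, with a median of 0.03 over 12, were nearly level, with *mt-Co1* at 80406 and 142772 (-0.08, -0.09 to -0.06) and *mt-Nd1* at 15971 and 31315 (0.07, 0.04 to 0.09), and *mt-Nd3* at 22 and 240 (2.52, 1.91 to 3.24). Among regulators of mitochondria, *Sirt1*, a deacetylase, had 330 and 1413 (1.19, 1.02 to 1.37) and *Tfam*, the factor of mitochondrial transcription, 235 and 584 (0.41, 0.19 to 0.63). *Ppargc1a*, the coactivator of mitochondrial biogenesis, had 0 and 19, an average under 10 counts, so that it was not among the genes measured.

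Abundant stress and antigen presentation genes differed little, as did abundant genes in general: of all genes averaging 300 counts or more, 1.91% lay beyond 2-fold. Of 26 immediate early genes, 10 were above equality (38.5%, against 39.4% of all genes) and 10 below (38.5%, against 33.2%). The list had 0 genes beyond 2-fold, with summed levels of 12406 CPM in WT and 12865 CPM in KO. *Fos* had 5497 and 12958 counts (0.33, 0.29 to 0.38) and *Junb* 13799 and 26355 (0.03, -0.00 to 0.06), both subunits of AP-1. Of 15 heat shock and chaperone genes, 11 were above equality (73.3%, against 39.4% of all genes) and 3 below (20%, against 33.2%). Their median was 0.23, and *Hsp90aa1* had 7079 and 16357 (0.30, 0.26 to 0.34). MHC class I genes had a median of -0.01 over 12 and MHC class II genes -0.07 over 10, with 0 beyond 2-fold in either list.

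Of 17 measured stromal progenitor genes, of the adipose fibroblasts that form adipocytes, 8 (47.1%, against 33.2% of all genes) had intervals below equality. Another 4 (23.5%, against 39.4%) lay above it, and 0 were beyond 2-fold, against 12.9% of all genes higher and 10.9% lower. Summed levels were 3922 CPM in WT and 3507 CPM in KO. *Pdgfra*, their receptor tyrosine kinase, had 346 counts in WT and 479 in KO (-0.43, -0.64 to -0.23), and *Mfap5*, of microfibrils, 261 and 218 (-1.16, -1.43 to -0.90). *Col1a1* had 2279 and 5082 (0.25, 0.18 to 0.32) and *Col3a1* 2856 and 7584 (0.50, 0.44 to 0.57), both fibrillar collagens. Over 16 collagen genes 7 were above and 4 below equality, and the genes beyond 2-fold were the lower *Col12a1* with 92 and 26 (-2.70, -3.42 to -2.09) and *Col14a1* with 460 and 315 (-1.45, -1.66 to -1.24), which code for collagens that associate with fibrils. Among 15 basement membrane genes, *Nid2*, a nidogen, had 155 and 84 (-1.78, -2.19 to -1.40), and *Lamc1*, a laminin chain, 662 and 1853 (0.58, 0.45 to 0.71).

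Mural genes went both ways, with a median of 0.05 over 10 and 2 beyond 2-fold in each direction (20%, against 12.9% of all genes higher and 10.9% lower). *Pdgfrb*, of pericytes, had 313 counts in WT and 506 in KO (-0.21, -0.42 to -0.00), and *Rgs5*, a pericyte marker, 339 and 554 (-0.20, -0.39 to 0.00). *Cspg4*, of the NG2 proteoglycan, had 0 and 48, at least 8.55-fold higher, and *Tagln*, a smooth muscle protein, 0 and 27. The lower genes were *Des*, which codes for desmin, with 76 and 22 (-2.66, -3.45 to -1.99), and *Kcnj8*, a potassium channel of pericytes, with 23 and 3 (-3.58, -6.22 to -2.12). Of 16 adipocyte genes 8 were measured, and *Adipoq*, *Plin1*, *Cidec*, *Lep*, *Retn*, *Cfd* and *Pck1* had no count in either library. *Scd1*, a desaturase that other cells also express, had 2061 and 5647 (0.55, 0.48 to 0.62).

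Skeletal muscle genes were present in WT and lower in KO, with 8 of 9 below equality (88.9%, against 33.2% of all genes). Of these, 5 were beyond 2-fold (55.6% of the list, against 10.9% of all genes), and summed levels were 77.8 CPM in WT and 12.7 CPM in KO. *Actn3*, the actinin of fast fibres, had 139 and 0 counts, at least 86.7-fold lower, *Ckm*, of muscle creatine kinase, 60 and 0, at least 37.4-fold lower, and *Acta1*, of skeletal actin, 87 and 17 (-3.21, -4.10 to -2.50). *Actn3*, *Ckm* and *Acta1* averaged 30 to 100 counts, a range in which 30.7% of all genes lay beyond 2-fold. The median of the list moved by 1.22, without a change of sign, when genes averaging under 50 counts were left out. *Myh1*, *Myh2* and *Tnnc2* had no count in either library. The smaller lists of other cell types had 1 or 2 genes beyond 2-fold higher each, against 12.9% of all genes. Erythroid and platelet genes had a median of 0.10 over 5, with 1 higher (20%). Schwann cell genes had a median of 1.13 over 5, with 2 higher (40%) and 1 lower (20%, against 10.9%). Epithelial genes had a median of 0.63 over 6, with 2 higher (33.3%), and the keratin gene *Krt18* at 19 and 181 (2.33, 1.66 to 3.11).

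Genes of prostaglandin and leukotriene synthesis had a median of -0.52 over 15, with 8 below and 4 above equality, 4 beyond 2-fold lower (26.7%, against 10.9% of all genes) and 1 higher, and summed levels of 363 CPM in WT and 364 CPM in KO. *Ptgis*, the prostacyclin synthase of vessel walls, had 43 counts in WT and 15 in KO (-2.37, -3.38 to -1.55), *Tbxas1*, the thromboxane synthase, 49 and 25 (-1.85, -2.63 to -1.15), and *Ptgs2*, which codes for the inducible COX-2, 239 and 655 (0.55, 0.33 to 0.77). In the complement list 6 of 15 were above and 5 below equality, with *C5ar1*, the C5a receptor of myeloid cells, at 137 and 50 (-2.34, -2.86 to -1.88) and *C3*, the central component, at 1579 and 3648 (0.30, 0.22 to 0.39).

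Of 15 nuclear and snoRNA-host long noncoding RNAs, 9 (60%, against 33.2% of all genes) had intervals below equality and 4 (26.7%, against 39.4%) above. The median was -0.19, whereas the mean of the list was positive. The 2-fold limit was passed by 3 genes lower (20%, against 10.9% of all genes) and 2 higher (13.3%, against 12.9%). *Kcnq1ot1*, an imprinted antisense transcript, had 678 counts in WT and 315 in KO (-2.01, -2.21 to -1.82). *Rian*, of the imprinted Dlk1-Dio3 domain, had 193 and 41 (-3.12, -3.66 to -2.65), and *Meg3*, of the same domain, 198 and 137 (-1.43, -1.76 to -1.11). *Neat1*, the scaffold of paraspeckles, had 3792 and 3922 (-0.86, -0.92 to -0.79), and *Malat1*, of nuclear speckles, 35869 and 61260 (-0.13, -0.15 to -0.11). *Lncpint*, chosen after its values were seen, had 1239 and 429 (-2.43, -2.60 to -2.28). *Snhg6*, a snoRNA host, went the other way with 0 and 181, at least 32.2-fold higher.

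The list of transcripts overlapping ribosomal RNA repeats, with 3 measured genes including *Gm26917* and *Lars2*, had a median log2 ratio of -3.87 and is left out of the following counts. Of the other 46 lists of cell types and processes, 30 had a median log2 ratio within 0.25 of equality, 6 lay above that range and 10 below it, beside the median of 0.06 over all genes measured. Of these 46, the lists farthest from equality were of cell types with few counts in these libraries, skeletal muscle at -1.99, Schwann cells at 1.13 and mast cells and eosinophils at -0.92.

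**Figure D5:**
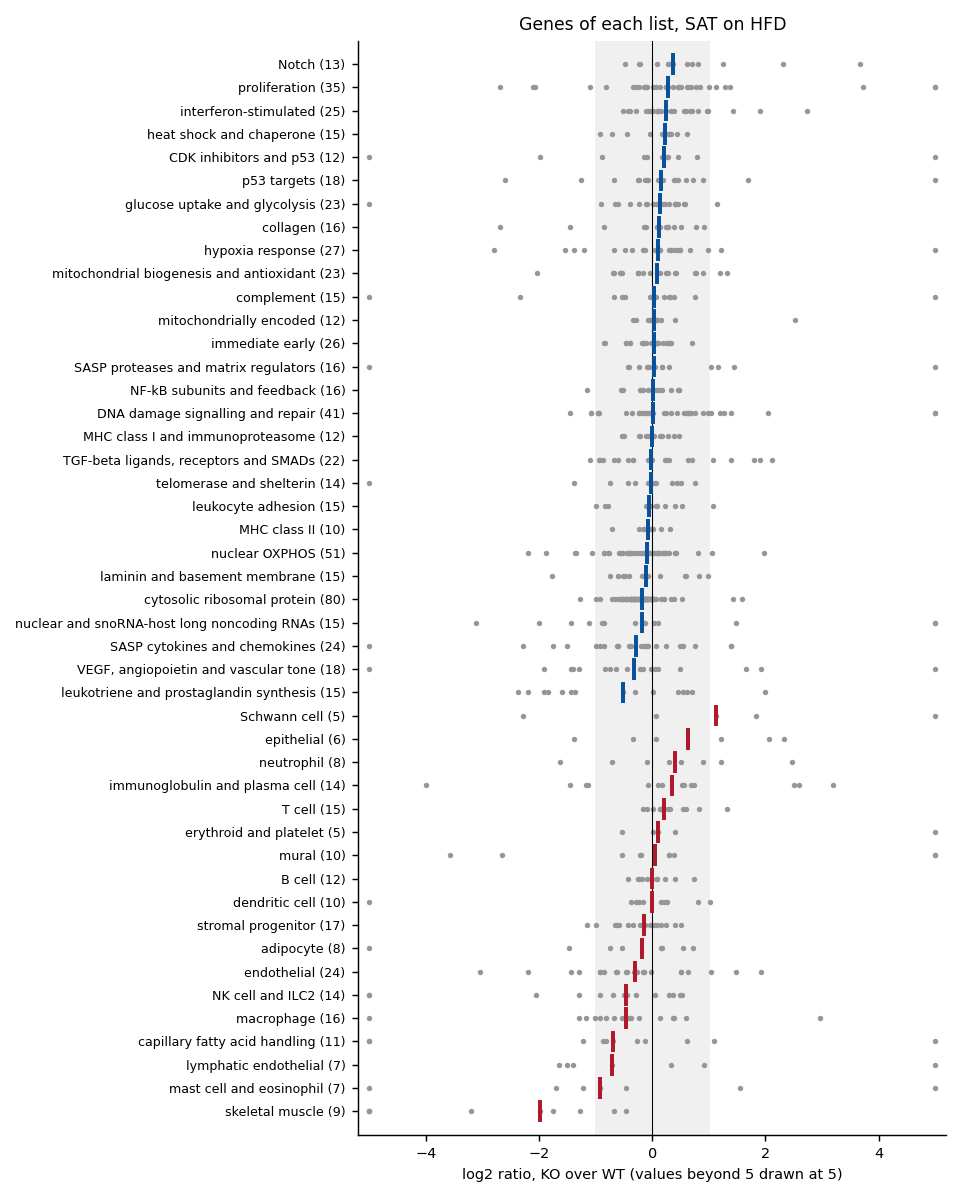
Log2 ratio of KO over WT in SAT on HFD for the measured genes of 46 lists, without the transcripts overlapping ribosomal RNA repeats (grey points, number in brackets), with the list median as a blue bar for processes and a red bar for cell types, and a grey band for 2-fold; points beyond 5 are drawn at 5. Medians run from -1.99 for skeletal muscle to 1.13 for Schwann cells, and 30 of 46 lie within 0.25 of 0.

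The genes at 0 in 1 library with the highest count in the other had products of many functions. Among protein-coding genes with 0 counts in WT, *Selenoo*, a mitochondrial selenoprotein, had 340 counts in KO, at least 60.5-fold higher, *Itga3*, of an integrin that binds laminin, 234, at least 41.7-fold, and *Zfyve21*, of focal adhesions, 188, at least 33.5-fold. *Zcchc10*, *Ccdc34*, *Paqr8*, *Zbtb8a*, *Ptp4a1*, *Ldhd* and *Rdh5* had 163 to 188 counts in KO. Among those with 0 counts in KO, *Slc24a1*, a sodium-calcium exchanger, had 119 counts in WT, at least 74.3-fold lower, *Mcf2l*, a guanine nucleotide exchange factor, 118, at least 73.6-fold, and *Klf8*, a transcription factor, 96, at least 59.9-fold. *Cilp*, a matrix protein, had 139 counts in WT and 1 in KO, a log2 ratio of -7.30 (-13.34 to -5.52). *Actn3* and *Tert* stand in the same group, and *Flrt2*, *Lrrc18*, *Pard6g* and *Dusp14* had 92 to 96 counts in WT. *Tert*, at 114 counts, was thus 1 of 886 measured genes with counts in WT and none in KO.

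The most abundant transcripts apart from the noncoding features were close to level. *Eef1a1*, a translation elongation factor, had 63819 counts in WT and 124991 in KO (0.07, 0.05 to 0.08). *Eef2*, of the same step, had a log2 ratio of 0.27, *Cd74*, the MHC class II invariant chain, of -0.16, *Tpt1* of -0.18, *mt-Cytb* of -0.04, *Hspa1b*, an inducible heat shock protein, of 0.23 and *H2-K1*, of MHC class I, of -0.05.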

How the data were processed

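RNAseq was done on mG+ cells sorted from SAT, VAT and muscle. The labels give RNA isolation on RNeasy columns and a SMARTER mRNA-Seq kit, while the methods of the study give Trizol. The values used are the whole-number counts per gene that the authors deposited, with no normalization. The submitters' processing notes list HISAT2 2.0.5 and GRCm38/mm10. The counting program and its use of strand are not given in the sources used here.

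Columns were matched to samples by tissue, diet and genotype, and each genotype has 1 library in a pair. Of 54532 genes in the table, 54409 were found in GENCODE M21, 98.1% of all genes with the same coordinates. Libraries were scaled by TMM over all 8 libraries (edgeR 4.0.16 in R 4.3.3, used for scaling alone). Log2 ratios have a prior count of 0.5 in proportion to library size, and their 95% intervals are Clopper-Pearson intervals of the binomial share of reads (Python 3.11.15, scipy 1.17.1). Genes averaging 10 counts or more over both libraries were measured, and zeros were set against a floor of 3 counts. No p-value was computed, since no genotype has replicates. The depth of each library sets the width of the intervals, and PCR reads without molecular identifiers are not independent molecules.

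The comparison, the gene lists and the rules for names were chosen with earlier results of these data known. The rules named *Tert*, the list members beyond 2-fold and the most abundant members of each list, the 12 protein-coding genes in each direction with intervals farthest from equality among those with at least 10 counts in both libraries and a mean of at least 50 CPM, the 10 in each direction with the largest bound, and the 10 genes with the most counts in each library. Genes outside them are said in the text to be chosen after their values were seen, except the neighbours *Glo1* and *Btbd9*, chosen likewise. Some list members with intermediate values are named for their function. Alternatives were library totals, DESeq2 1.42.0 size factors, TMM over the pair, upper quartile scaling, scaling without ribosomal repeat or mitochondrial transcripts, other count filters, a 4-fold limit and a prior count of 5. The scripts were tested on simulated data. Promoter sequences are from RefSeq.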

Additional observations from a re-analysis of the deposited data

Results flagged for a closer look

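Of the genes named, 19 were beyond 2-fold in SAT in opposite directions on HFD and on chow. With 1 library of each genotype per diet, the differences were not tested. The same count over all genes is not given here, so that the 19 have no background. In SAT on chow, 24.3% to 39.5% of genes lay beyond 2-fold, depending on the range of mean counts. On HFD, *Il13* and *Ptgis* averaged 10 to 30 counts, a range in which 66.2% of all genes lay beyond 2-fold. Each value here is the log2 ratio of KO over WT on HFD minus that on chow.

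Among the genes lower in KO on HFD and higher on chow, 6 are known from stromal cells or their matrix, and they are listed here for that reversal and do not stand for their lists. On HFD the collagen list had a median of 0.12, with 7 intervals above equality and 4 below, and the stromal progenitor list a median of -0.15 with 0 genes beyond 2-fold. *Tnfaip6* differed by -8.41 (-1.43 on HFD, 6.97 on chow), *Ptgis* by -5.52 (-2.37, 3.14), *Col12a1* by -5.45 (-2.70, 2.75), *Gfpt2* by -4.72 (-1.35, 3.37), *Nid2* by -3.21 (-1.78, 1.43) and *Col14a1* by -3.01 (-1.45, 1.56). The summed level of stromal progenitor markers was 3922 CPM in WT and 3507 CPM in KO on HFD, and 1746 CPM and 5118 CPM on chow, and its part in these differences was not tested.

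Secreted and stress genes had the same order. *Ccl7* differed by -5.48 (-2.28, 3.20), *Cxcl1* by -5.14 (-1.50, 3.64), *Gdf15* by -4.66 (-2.60, 2.06), *Il13* by -4.30 (-2.06, 2.24), *Ccl2* by -3.91 (-1.75, 2.16), *Hmox1* by -3.24 (-2.04, 1.20) and the kinase gene *Pik3c2b* by -2.88 (-1.23, 1.65). So did the long noncoding RNAs *Rian* at -7.77 (-3.12, 4.65), *Lncpint* at -5.96 (-2.43, 3.53) and *Kcnq1ot1* at -5.34 (-2.01, 3.33).

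The opposite order was seen for *mt-Rnr1* at 11.50 (8.40, -3.10), *mt-Rnr2* at 8.03 (5.31, -2.72) and *Cd247* at 2.45 (1.32, -1.13). The summed T cell genes were 3141 CPM and 3674 CPM on HFD and 6536 CPM and 3278 CPM on chow, WT first.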

How the results depend on the processing

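No replicate could be left out, since each genotype has 1 library in the pair. No paired analysis was possible because the labels give 1 library per group and no replicate numbers. Scaling moved log2 ratios by at most 0.07, and the bound for *Tert* ran from 68 to 72.8. Under library totals, 110 of 845 genes that were named or in a list fell outside their own counting interval. A prior count of 5 moved log2 ratios by up to 3.30, with 28 of the 845 outside their interval. By library totals, 56.1% of the genes beyond 2-fold were higher in KO. The filters moved the counts more: 535 genes were higher and 453 lower with a mean of at least 50 counts, 2960 were lower (43.9% of the called higher) with at least 1 count in total, and 436 were higher and 741 lower (37% higher) with at least 10 counts in both libraries. Beyond 4-fold, 1011 were higher and 1080 lower (48.4% higher). Of genes counted in WT, 18.7% at 30 to 60 counts, 0% at 200 to 600 counts and 1.17% of protein-coding genes at 60 to 200 counts had 0 in KO, and of those counted in KO 32.5%, 0.084% and 6.88% had 0 in WT. Outside mitochondrially encoded genes, *Gm26917* held 9.97% of WT and 0.715% of KO counts. Other scalings turned the sign of at most 5 of 46 list medians, all within 0.03 of 0. A mean of at least 50 counts turned 5 (lymphatic, adipocyte, dendritic cell, DNA damage, leukotriene and prostaglandin), at least 10 counts in both libraries turned 3 (mural, adipocyte, dendritic cell), at least 1 count in total turned 1 (epithelial), and the mean in place of the median turned 10. The spread by count had no alternative. The causes of these changes were not tested.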

Other observations

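Protein-coding genes averaging 100 counts or more were divided into 10 equal bins of gene length. The bin of the shortest gene models had a median log2 ratio of -0.09, and the others had medians between 0.03 and 0.13.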
